A study of Caenorhabditis elegans with 11 samples.

Results

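The 71 genes described here are the histone genes his-1 to his-72 of Caenorhabditis elegans, without his-23, which is not analysed here. They were taken as the consecutive WormBase identifiers WBGene00001875 to WBGene00001946, and they are 71 of the 46904 gene rows in each count table. Of these, 64 are core genes classed here as replication-type (17 H2A, 16 H2B, 15 H3 and 16 H4), and 5 are variant genes: his-24, a linker histone H1, and the H3 variants his-69, his-70, his-71 and his-72. The other 2, his-36 and his-39, were given no type. The gene name table used here calls the identifier of his-36 C50F4.6, and its span was taken from that gene. Every typed core gene outside the named variants was classed as replication-type, and its use in S phase was not tested. Of the 64, 60 have a gene model of coding length, while his-35, his-37, his-41 and his-57 have longer spans. Among the variants his-24, his-71 and his-72 have annotated spans of 1026, 689 and 1576 bases. The study dissected gonads of day-one adults and counted antisense small RNA and mRNA per gene. The mutant is strain RB950, which carries the allele cup-4(ok837), and its wild-type counterpart is strain N2. Small RNA was sequenced from 3 cup-4 and 3 wild-type samples, and mRNA from 3 cup-4 samples (batches 1, 2 and 3) and 2 wild-type samples (batches 2 and 3). The labels of all small RNA samples, of both genotypes, carry the tag TAP, and its effect on the counts was not tested. Wild-type mRNA of batch 1 was not analysed here. The mutant is 1 allele in 1 strain. The design calls the samples biological replicates without saying whether they came from separate cultures, so the p-values measure the spread between these samples.

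Core histones H2A, H2B, H3 and H4 wrap DNA into nucleosomes, and linker histone H1 binds between them. Replication-type genes lie in clusters and are transcribed in S phase, and in animals their mRNAs typically end in a stem-loop in place of a poly(A) tail, whereas variant genes are used outside S phase and make polyadenylated mRNA. In the C. elegans germline, RNA-dependent RNA polymerases such as EGO-1 copy many mRNAs into antisense small RNAs, which the Argonaute CSR-1 and others bind, and histone mRNAs are among the known targets of this pathway. The gene cup-4 encodes a protein related to ligand-gated ion channels, needed for endocytosis by coelomocytes, the scavenger cells of the body cavity. Reads were counted on dissected tissue, so fewer cells of a type and less RNA per cell cannot be told apart.

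The gene counts summed to between 14858199 and 39310540 per small RNA library and between 21290140 and 29559542 per mRNA library. The mRNA of cup-4 itself had 23, 37 and 20 counts in cup-4 gonads, against 117 and 85 counts in wild-type gonads. The 8 germline markers were all detected in both genotypes, with summed mRNA of 8820 to 14000 CPM (counts scaled to a common library total with TMM factors) in cup-4 gonads and 7270 to 14600 CPM in wild-type gonads. Markers of other tissues were also present, and those of the intestine stood apart. Their summed mRNA was 112000, 19100 and 34200 CPM in cup-4 replicates 1, 2 and 3, against 4010 and 3450 CPM in wild-type replicates 2 and 3. All 8 intestine markers had a log2 fold change above 0, and none was at 0 counts throughout. The 6 muscle and sheath markers summed to 894 to 3940 CPM in cup-4 gonads and 517 to 780 CPM in wild-type gonads.

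More histone genes were counted in small RNA than in mRNA. The labels call the mRNA poly(A) RNA, whereas the design text calls it total RNA. Messages of replication-type genes typically lack a poly(A) tail. Any effect of this on their mRNA counts, alone or beside variant genes, was not tested. In small RNA 63 of the 71 had at least 1 count, and in mRNA 50 had. The 8 genes without a small RNA count were also at 0 in every mRNA library: his-19, his-20, his-21, his-22, his-51, his-52, his-53 and his-54, of which 4 encode H2A and 4 encode H2B. A count of 0 allows up to 3 counts, or 0.195 CPM in the shallowest small RNA library. In mRNA 21 genes were at 0, 13 of which had small RNA counts, and no gene had mRNA counts without small RNA counts. Every H3 gene and every H4 gene had small RNA counts in some library.

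Of the 21 genes at 0 in mRNA, 20 share a symbol with another histone gene. The gene name table gives 1 symbol to several identifiers in 14 groups that together hold 36 of the 71 genes. Of these 36 genes, 25 had at most 3 mRNA counts in every library and 20 had 0, whereas of the 35 genes with a symbol of their own, 2 had at most 3 counts and 1 had 0. The mRNA tables report 5.54% to 13% of reads as aligned to more than 1 place, outside any gene, while the small RNA tables report 0 such reads. How shared reads were divided among copies was not tested, so counts of single copies are uncertain in both assays. The copies his-10, his-14 and his-26, which encode H4, had small RNA totals of 968 to 1008 counts over all 6 libraries, and mRNA totals of 0 to 2 counts. Other groups differed from this. The copies his-47, his-57 and his-65 had small RNA totals of 192 to 458 counts, 2.385-fold apart, and the copies his-45 and his-55 had mRNA totals of 283 and 336 counts. Over the 12 groups with small RNA counts the highest copy had between 1.008 and 2.385 times the total of the lowest.

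**Figure D1:**
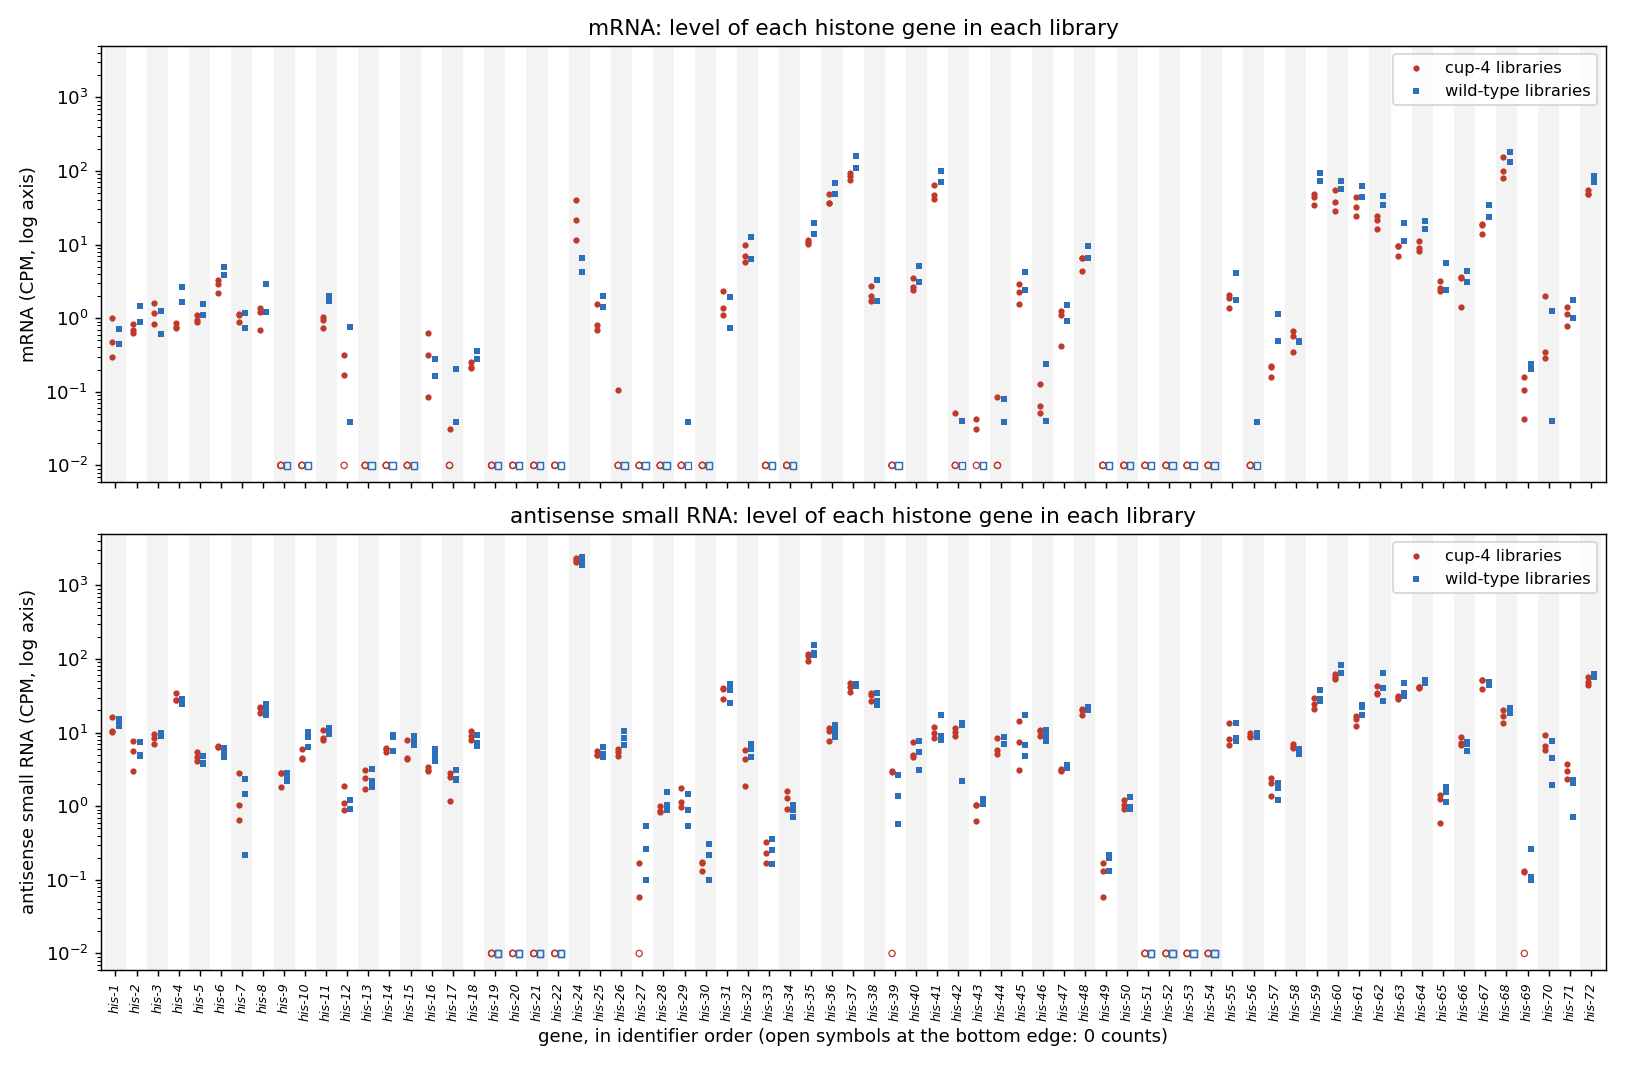
Level of each of the 71 histone genes in every library, in CPM on a log axis, with mRNA above and antisense small RNA below; circles are cup-4 libraries, squares are wild-type libraries, and open symbols at the bottom edge are 0 counts. his-24 stands above all other genes in small RNA, while in mRNA it lies well below his-68 and his-37, and 21 genes have 0 mRNA counts in every library.

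Most histone mRNA counts came from few loci, and any effect of poly(A) selection on these shares was not tested. The 71 genes lie in 13 runs of neighbouring genes that hold 68 of them, with his-24, his-71 and his-72 standing alone. Of histone mRNA, 85% ± 2.63 in cup-4 gonads (SD, n = 3) and 88.8% ± 1.23 in wild-type gonads (SD, n = 2) came from 11 genes at 4 loci. The run of his-35, his-36, his-37 and his-41 on chromosome V gave 31.8% ± 3.99 in cup-4 gonads and 32.5% ± 0.769 in wild-type gonads. Within it his-36, named C50F4.6 in the gene name table, had 40.55 CPM in cup-4 gonads and 58.46 CPM in wild-type gonads. All histone mRNA summed to 593.5 CPM in cup-4 gonads and 903.6 CPM in wild-type gonads. The run of his-59 to his-62 on chromosome IV gave 23.2% ± 3.31 in cup-4 gonads and 26.9% ± 1.18 in wild-type gonads. The pair his-67 and his-68 on chromosome I gave 21.4% ± 3.92 in cup-4 gonads and 20.6% ± 0.0935 in wild-type gonads. The H3.3 gene his-72 on chromosome III gave 8.60% ± 0.553 in cup-4 gonads and 8.86% ± 0.908 in wild-type gonads. The shares of these loci differed between genotypes by little relative to their spread, except that his-59 to his-62 lay lower in cup-4 gonads by about the spread of cup-4 libraries.

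Per kilobase of annotated gene span, his-68, an H2A gene, had the highest mRNA level, with 292 ± 105 CPM per kb in cup-4 gonads (SD, n = 3) and 410 ± 95.2 CPM per kb in wild-type gonads (SD, n = 2). The H4 gene his-37 had 169 ± 20.4 CPM per kb in cup-4 gonads and 267 ± 70.4 CPM per kb in wild-type gonads. It was followed by the H4 gene his-60, with 131 ± 44.2 CPM per kb in cup-4 gonads and 207 ± 37.9 CPM per kb in wild-type gonads. The H3 gene his-59 was next, with 104 ± 17.8 CPM per kb in cup-4 gonads and 204 ± 33.4 CPM per kb in wild-type gonads. The levels of his-37, his-60 and his-59 did not differ beyond their spread in wild-type gonads, and his-68 lay above his-59 by more than the spread of either in both genotypes. In small RNA the next genes after his-24 per kilobase were his-60, with 183 ± 14.4 CPM per kb in cup-4 gonads and 229 ± 34.8 CPM per kb in wild-type gonads, and his-35, with 171 ± 20.7 CPM per kb in cup-4 gonads and 204 ± 35 CPM per kb in wild-type gonads, which overlap within their spread.

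The linker histone gene his-24 ranked first among the 71 histone genes in small RNA per kilobase in both genotypes. In mRNA per kilobase it ranked 12 in cup-4 gonads and 25 in wild-type gonads. Its annotated span is 1026 bases, while most core genes have a gene model of coding length, so these ranks compare unlike spans. The gene his-24 lies on chromosome X at chrX:14490094-14491119 in assembly WBcel235. Its product, histone H1.1, is known in C. elegans for chromatin silencing and germline development. In antisense small RNA it had 2062, 2355 and 2199 CPM in cup-4 replicates 1, 2 and 3, against 1923, 2147 and 2453 CPM in wild-type replicates 1, 2 and 3. These values overlap between genotypes and vary little. They amount to 72.7% ± 2.20 of all histone small RNA in cup-4 gonads (SD, n = 3) and 70.1% ± 3.06 in wild-type gonads (SD, n = 3). Per kilobase his-24 had 2149 CPM in cup-4 gonads and 2119 CPM in wild-type gonads, 11.7 times his-60, the next histone gene, in cup-4 gonads and 9.24 times his-60 in wild-type gonads. Among 42021 genes with an annotated span its small RNA per kilobase ranked between 64 and 65 in cup-4 libraries and between 58 and 69 in wild-type libraries. The log2 fold change in small RNA was 0.0205 ± 0.11 (SE; edgeR quasi-likelihood test, adjusted p = 0.933). The difference was not detectable against the spread between libraries, and its sign turned when single libraries were left out.

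In mRNA his-24 had 40.6, 21.6 and 11.6 CPM in cup-4 replicates 1, 2 and 3, from 779, 682 and 270 counts, against 6.61 and 4.21 CPM in wild-type replicates 2 and 3, from 168 and 104 counts. All 3 cup-4 libraries lay above both wild-type libraries. It was the single histone gene of the 38 tested in mRNA whose genotypes did not overlap with cup-4 higher, against 20.1% of all 12861 genes tested. The log2 fold change was 2.18 ± 0.58 (SE; edgeR quasi-likelihood test, adjusted p = 0.164), which did not pass the threshold of 0.05. With the batch as a block it was 1.59, adjusted p = 0.047 by edgeR, where 1.49% of all genes tested were called higher. Cup-4 replicate 1 is alone in batch 1, so the block fit took its genotype difference from batches 2 and 3. DESeq2 without the block gave 2.07 with adjusted p = 0.00434. Without cup-4 replicate 1, the highest library, the log2 fold change was 1.52, with adjusted p = 0.326 by edgeR. That fit rests on batches 2 and 3 as well. As a share of histone mRNA his-24 made up 7.53%, 3.09% and 2.14% in cup-4 replicates 1, 2 and 3, against 0.629% and 0.556% in wild-type replicates 2 and 3. The intestine and muscle markers were also higher in cup-4 libraries, and cup-4 replicate 1 was highest for 6 of 8 intestine and 5 of 6 muscle and sheath markers. Replicate 2 exceeded replicate 3, as it did for his-24, in 4 of 8 intestine and 2 of 6 muscle and sheath markers. The vitellogenin genes vit-2, vit-5 and vit-6 made up 91.5% to 98.9% of the intestine sum, and the 5 other intestine markers summed to 1260, 1020 and 860 CPM in cup-4 replicates 1, 2 and 3, against 342 and 204 CPM in wild-type replicates 2 and 3. The sum of these 5, a subset taken after the list of 8 was fixed, had the same order of cup-4 libraries as his-24. An order of 3 libraries is no test of a cause. Of the 5, replicate 1 was highest in 3 and replicate 2 exceeded replicate 3 in 4. The sums of all 8 intestine markers and of the 6 muscle and sheath markers had replicate 3 above replicate 2. The part of these tissues in the his-24 difference was not tested. The small non-coding genes M163.16 and M163.19 overlap his-24, with at most 9 small RNA counts and at most 3 mRNA counts in any library.

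**Figure D2:**
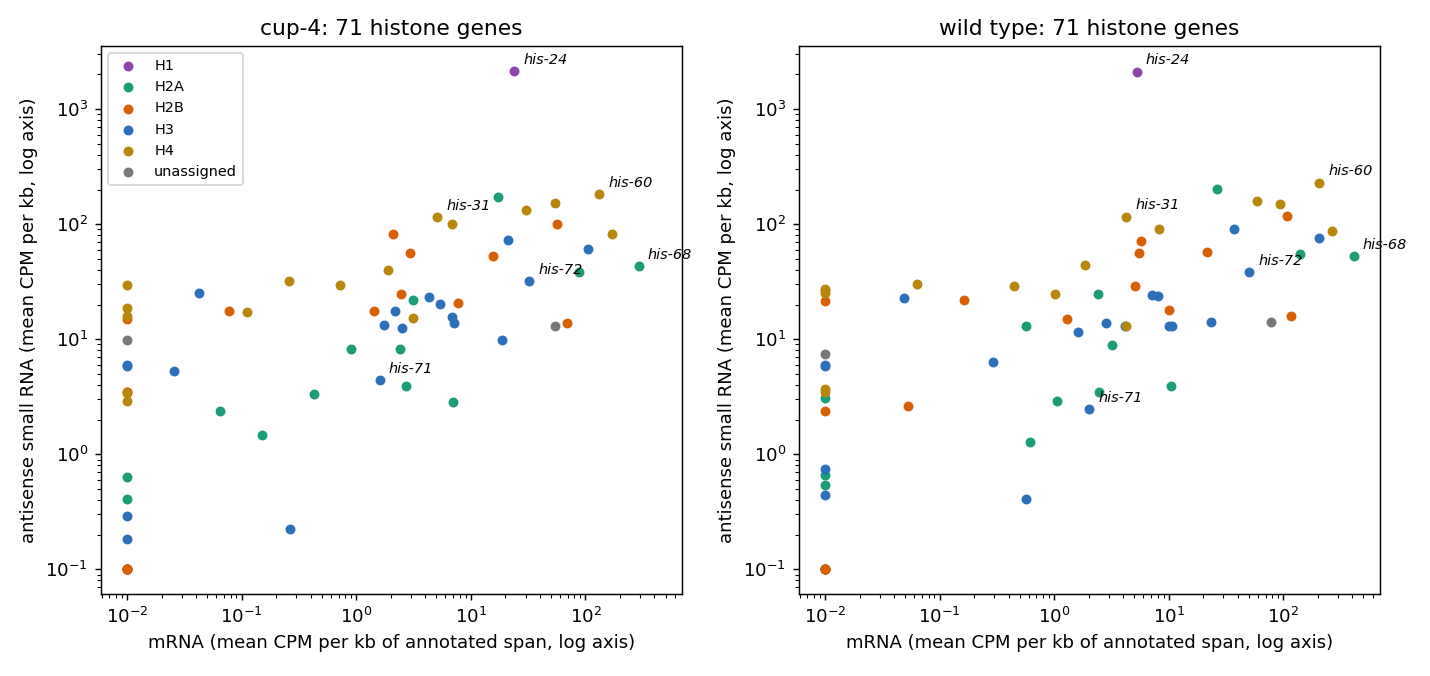
Antisense small RNA against mRNA, both in mean CPM per kilobase of annotated span on log axes, for the 71 histone genes in cup-4 gonads (left) and wild-type gonads (right), coloured by histone type; points at the left or bottom edge lie at or below 0.01 or 0.1 CPM per kb. his-24 stands above every other gene in small RNA in both genotypes, and his-68, with the most mRNA, lies below his-60 in small RNA.

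The replication-type genes had a lower summed mRNA in cup-4 gonads, while no single gene passed the test. Summed over the 64 genes, replication-type mRNA was 410.5, 572 and 444 CPM in cup-4 replicates 1, 2 and 3, against 885 and 631 CPM in wild-type replicates 2 and 3. All cup-4 sums lay below both wild-type sums, with the nearest values being cup-4 replicate 2 and wild-type replicate 3. Under total counts these were 611 CPM in cup-4 replicate 2 and 598.4 CPM in wild-type replicate 3, so the sums overlapped. The log2 ratio of the means was -0.67, and within batches it was -0.63 in batch 2 and -0.51 in batch 3. It was -0.41 without wild-type replicate 2. By type the log2 ratio of summed mRNA was -0.53 for H2A, -0.78 for H2B, -0.84 for H3 and -0.67 for H4, and differences between types were not tested. Cup-4 replicate 1, the cup-4 library with the lowest histone sum, had the highest intestine marker sum, with or without the vitellogenin genes. Cup-4 replicate 2, with the highest histone sum, had the lowest intestine sum of that genotype with the vitellogenin genes and the middle one without them. With 3 cup-4 libraries such an order is no test, and the part of the other tissues in the difference was not tested.

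Gene by gene, 38 of the 71 histone genes had enough mRNA counts to be tested, and 31 of these, 81.6%, had a log2 fold change below 0, against 40.6% of all 12861 genes tested. Their median was -0.60, while the median of all genes tested was 0.16. The median was -0.20 without wild-type replicate 2, the library with the most histone mRNA. None of the 38 passed an adjusted p of 0.05 in edgeR, where 0% of all genes tested passed in either direction. At an unadjusted p under 0.05, 10 (26.3%) were lower, against 6.35% of all genes tested, and his-24 was higher, against 10.8%. That count of 10 was 3 when cup-4 replicate 3 was left out and 1 when wild-type replicate 2 was. With the batch as a block, which takes the mRNA genotype difference from batches 2 and 3, 4 (10.5%) were lower. Of all genes tested 3.74% were, and the median of the histone genes was -0.47. DESeq2 called 3 genes, his-24 as higher (2.63%, against 5.81% of all genes tested) and his-59 and his-64 as lower (5.26%, against 2.48%). The genotypes did not overlap with cup-4 lower for 15 of the 38 genes, 39.5%, against 17.8% of all genes tested. These were his-2, his-4, his-6, his-11, his-35, his-37, his-41, his-57, his-59, his-60, his-62, his-63, his-64, his-67 and his-72. Under total counts his-2 and his-60 overlapped, which left 13 genes.

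All 9 replication-type H3 genes tested had an mRNA fold change below 0, with log2 fold changes between -0.96 and -0.33 and a median of -0.71. The H3 gene his-59 (WBGene00001933, chrIV:7488249-7488659) had 34.9, 49.3 and 44.6 CPM in cup-4 replicates 1, 2 and 3, against 93.5 and 74.1 CPM in wild-type replicates 2 and 3. Every cup-4 library was well below both wild-type libraries. Its log2 fold change was -0.96 ± 0.23 (SE; edgeR quasi-likelihood test, adjusted p = 0.147), the lowest p among the histone genes in mRNA, and DESeq2 gave an adjusted p of 0.0239. The H3 gene his-63 had 6.93, 9.63 and 9.49 CPM in cup-4 replicates 1, 2 and 3, against 19.5 and 11.0 CPM in wild-type replicates 2 and 3, again without overlap (log2 fold change -0.81 ± 0.34, adjusted p = 0.295 by edgeR).

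Of the H2B genes, 7 of 8 tested had a log2 fold change below 0, with a median of -0.83. The H2B gene his-62, in the same run as his-59, had 16.2, 24.5 and 21.7 CPM in cup-4 replicates 1, 2 and 3, against 45.2 and 35 CPM in wild-type replicates 2 and 3. The genotypes did not overlap, and the log2 fold change was -0.95 ± 0.25 (SE; edgeR quasi-likelihood test, adjusted p = 0.164). The H2B gene his-41, which overlaps his-36 by 173 bases, had 63.6, 46.6 and 41.6 CPM in cup-4 replicates 1, 2 and 3, against 99.3 and 70.3 CPM in wild-type replicates 2 and 3. Here cup-4 replicate 1 came near wild-type replicate 3, with a log2 fold change of -0.75 ± 0.26 (adjusted p = 0.237 by edgeR). The low-level H2B gene his-4 had 14, 24 and 20 counts in cup-4 gonads, against 67 and 41 counts in wild-type gonads (log2 fold change -1.45 ± 0.53, adjusted p = 0.247 by edgeR).

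Of the H4 genes, 6 of 8 tested had a log2 fold change below 0, with a median of -0.55. The H4 gene his-64 had 8.29, 11.1 and 9.06 CPM in cup-4 replicates 1, 2 and 3, against 20.9 and 16.1 CPM in wild-type replicates 2 and 3. The genotypes were separated, with a log2 fold change of -0.96 ± 0.27 (SE; edgeR quasi-likelihood test, adjusted p = 0.171, and 0.0417 by DESeq2). The H4 gene his-37, second highest of the histone genes per kilobase of mRNA, had 86.1, 95.1 and 74.6 CPM in cup-4 replicates 1, 2 and 3, against 160 and 109 CPM in wild-type replicates 2 and 3. All cup-4 values were below both wild-type values (log2 fold change -0.66 ± 0.24, adjusted p = 0.249 by edgeR). The H4 genes his-60 and his-67 had log2 fold changes of -0.65 ± 0.31 and -0.77 ± 0.26, with no overlap in either.

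H2A genes were more mixed, with 6 of 8 tested below 0 and a median of -0.54. The H2A gene his-68 had 79.2, 157 and 99.8 CPM in cup-4 replicates 1, 2 and 3, against 183 and 132 CPM in wild-type replicates 2 and 3. Cup-4 replicate 2 exceeded wild-type replicate 3, so the genotypes overlapped, and the log2 fold change was -0.49 ± 0.34 (SE; edgeR quasi-likelihood test, adjusted p = 0.519). The H2A gene his-61 also overlapped, at -0.65 ± 0.30, while his-35 did not, at -0.62 ± 0.26 with 10.1, 11.5 and 10.9 CPM in cup-4 replicates 1, 2 and 3 and 19.4 and 14 CPM in wild-type replicates 2 and 3. The lowest fold change was that of the H2A gene his-57, -2.0 ± 0.80 (adjusted p = 0.277 by edgeR), named after its value was seen. It rests on 3, 7 and 5 counts in cup-4 gonads, against 29 and 12 counts in wild-type gonads, and 379 bases of its span overlap the gene klp-12.

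**Figure D3:**
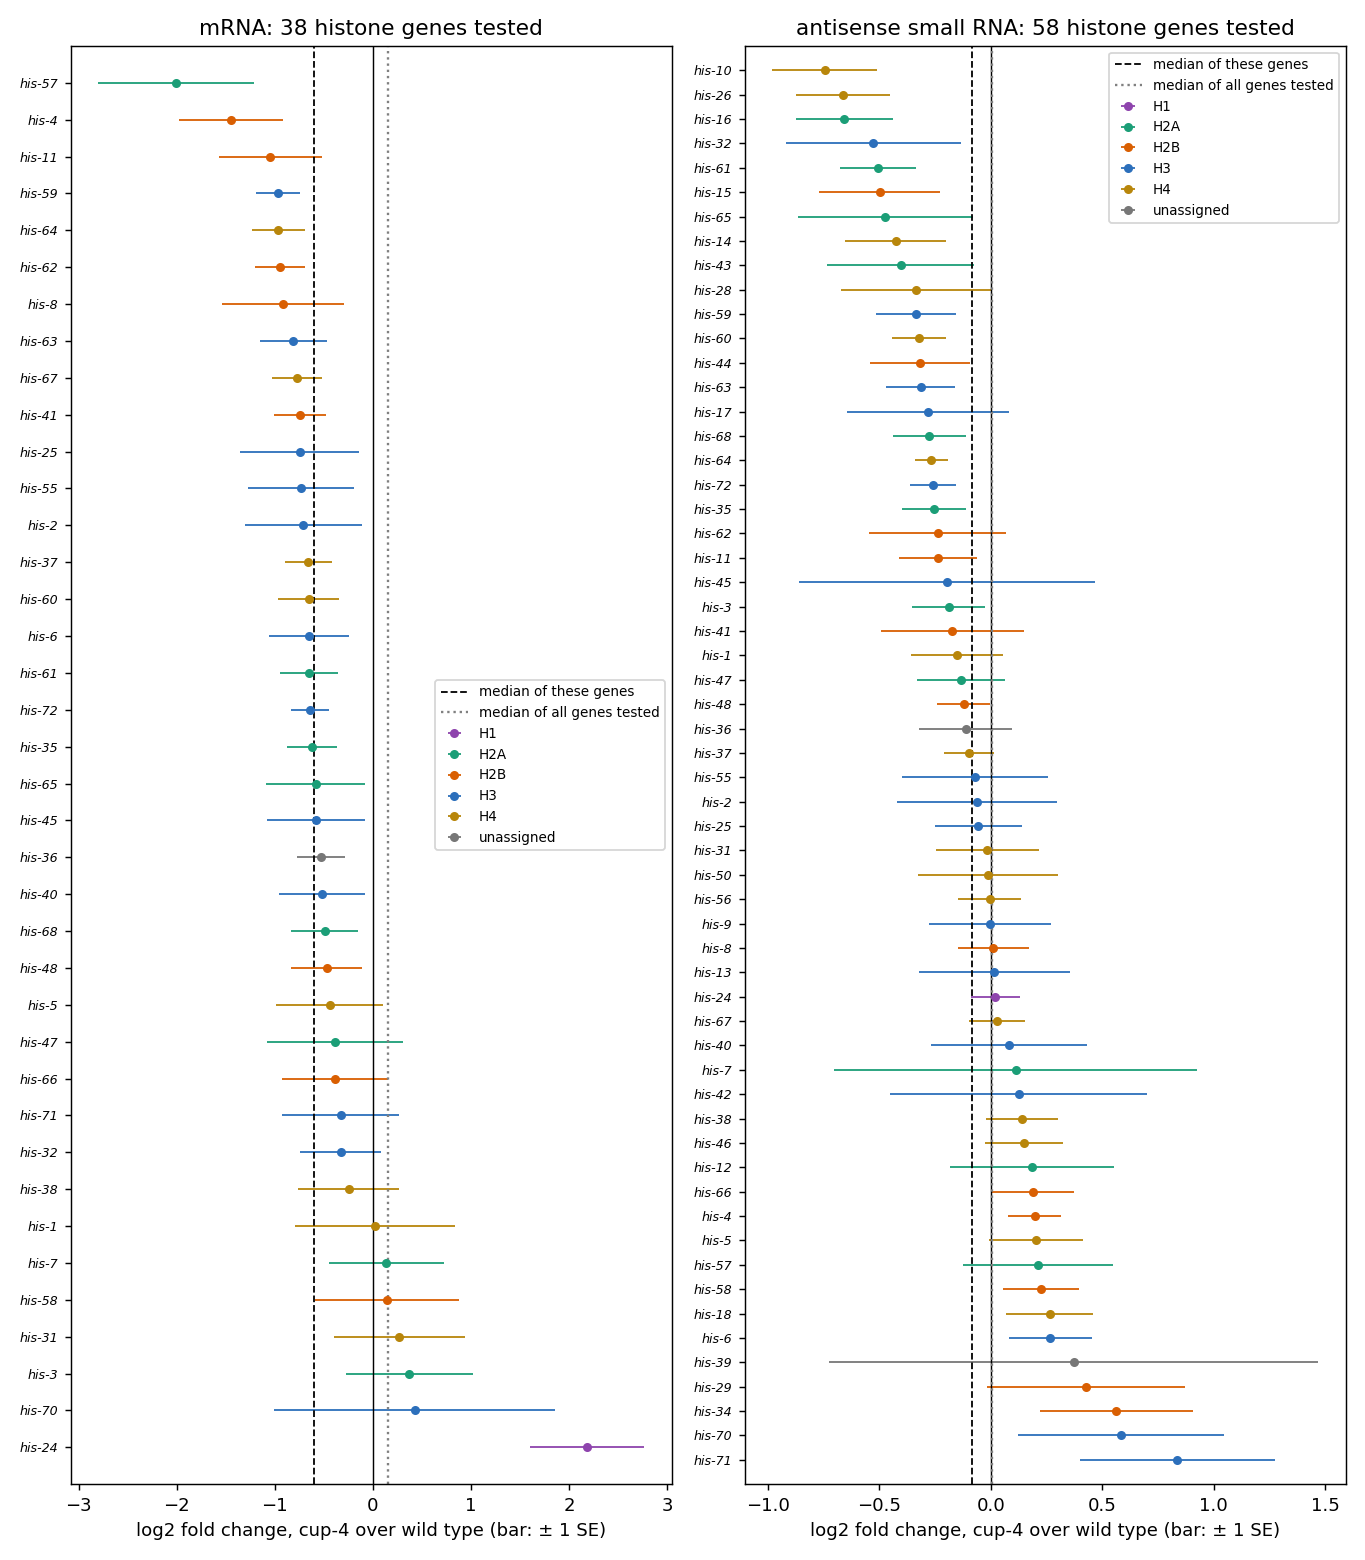
Log2 fold change of cup-4 over wild type for each histone gene tested, with 1 standard error, in mRNA (left) and antisense small RNA (right); genes run by fold change, colours give the histone type, the dashed line is the median of the histone genes and the dotted line that of all genes tested. In mRNA 31 of 38 genes lie below 0 and his-24 lies apart at 2.18, while in small RNA 36 of 58 lie below 0 and most estimates are within 0.5 of 0.

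The H3 variant genes differed widely in level. H3.3 replaces replication-type H3 outside S phase. Among the genes described here it is encoded by his-71 and his-72, and his-69 and his-70 encode related proteins. In mRNA his-72 (WBGene00001946, chrIII:12367475-12369050) had 48.4, 55.8 and 48.0 CPM in cup-4 replicates 1, 2 and 3, against 86.4 and 71.9 CPM in wild-type replicates 2 and 3. All cup-4 libraries lay below both wild-type libraries, with a log2 fold change of -0.64 ± 0.19 (SE; edgeR quasi-likelihood test, adjusted p = 0.186), close to the -0.65 median of the replication-type genes tested. Without his-24 the variant genes summed to 51.9, 57.4 and 49.2 CPM of mRNA in cup-4 gonads and 89.6 and 73.2 CPM in wild-type gonads. The gene his-71 had 27, 36 and 18 mRNA counts in cup-4 gonads, against 45 and 25 counts in wild-type gonads, which overlap (log2 fold change -0.33 ± 0.59, adjusted p = 0.826 by edgeR). The gene his-70 had 39, 9 and 8 counts in cup-4 gonads and 32 and 1 counts in wild-type gonads, so its libraries varied more within genotypes than between them. The gene his-69 had at most 6 counts in any library of either assay and was not tested.

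**Figure D4:**
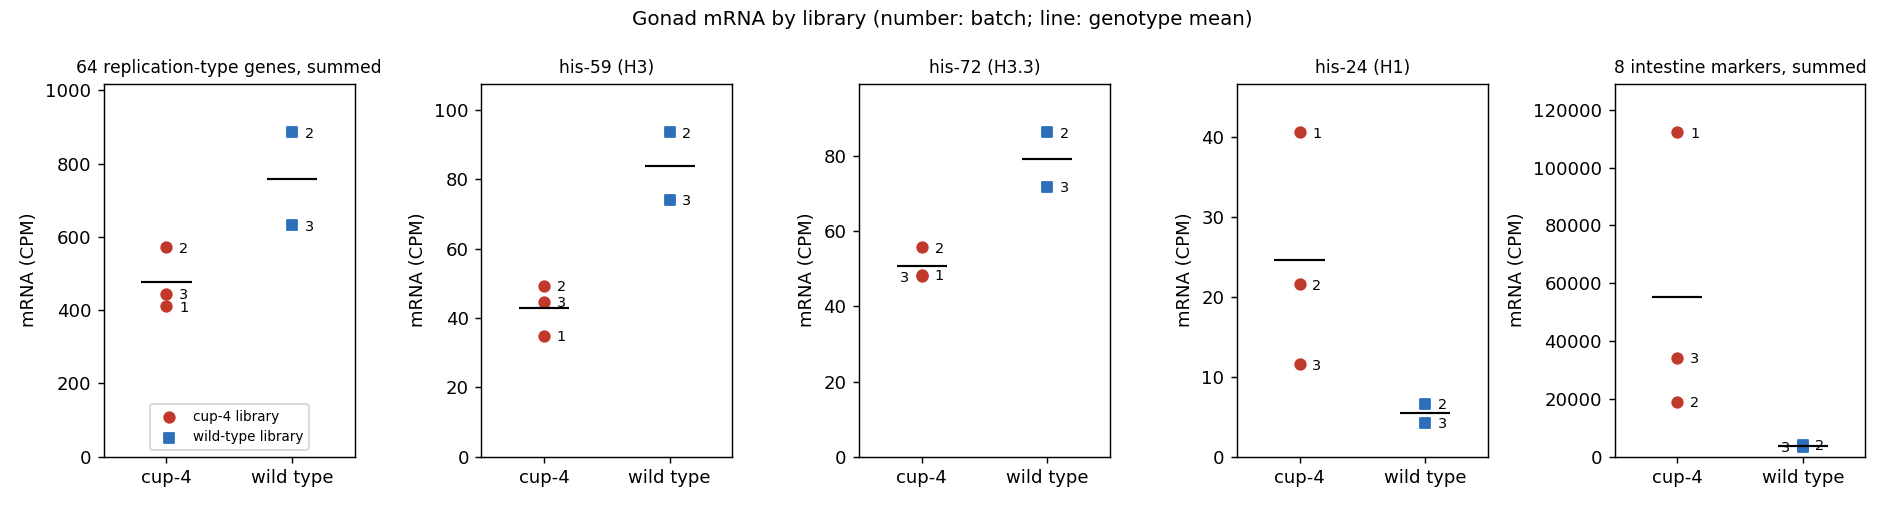
mRNA in CPM by library for the summed replication-type genes, his-59, his-72, his-24 and the summed intestine markers, with cup-4 left and wild type right; numbers give the batch, lines give genotype means, and every axis starts at 0. Cup-4 libraries lie below wild-type libraries in the first 3 panels (with TMM scaling; the replication-type sums overlap under total counts) and above them in the last 2, and batch 1 has a cup-4 library alone.

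In small RNA the histone genes lay nearer 0. Of the 58 histone genes tested, 36 had a log2 fold change below 0, 62.1%, against 49.3% of all 13336 genes tested. The median was -0.084, against 0.0065 for all genes, and it was 0.020 with library sizes from total counts, a scaling under which the median of all genes was 0.12. Leaving out cup-4 replicate 1 gave -0.17, leaving out cup-4 replicate 3 gave -0.041, and leaving out wild-type replicate 2 gave -0.14. None of the 58 passed an adjusted p of 0.05 in edgeR, where 0.78% of all genes tested were called higher and 0.337% lower. At an unadjusted p under 0.05, 7 (12.1%) were lower and 0 higher, against 11.1% and 11.7% of all genes tested. That count of 7 was 3 without cup-4 replicate 3, 4 without cup-4 replicate 2 and 2 under total counts, where 3.04% of all genes tested were lower. DESeq2 called 1 gene as lower, his-10 (1.72%, against 4.99% of all genes tested). Without the filter on low counts edgeR called 3 as lower, his-10, his-60 and his-61 (4.76% of 63, against 2.35% of 31750 genes). The genotypes did not overlap with cup-4 lower for 10 genes, 17.2%, against 14.8% of all genes, and with cup-4 higher for 3 genes, 5.17%, against 15.8%. The share of genes without overlap and lower was thus near that of all genes. Both sets, the 7 and the 10, include the copies his-10 and his-26. These copies share a symbol and had near-equal counts, so they may not be separate measurements. Under total counts 5 genes were lower without overlap, 8.62%, against 4.88% of all genes, and his-43, his-47, his-61, his-63 and his-72 were no longer among them.

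Summed over the 64 replication-type genes, small RNA was 793, 763 and 699 CPM in cup-4 replicates 1, 2 and 3, against 878, 798 and 845 CPM in wild-type replicates 1, 2 and 3. The cup-4 sums lay below the wild-type sums, though cup-4 replicate 1 came close to wild-type replicate 2. Under total counts the sums overlapped, with 798.5, 789.3 and 753 CPM in cup-4 replicates 1, 2 and 3, all above the 750.3 CPM of wild-type replicate 3. The log2 ratio of the means was -0.16, with -0.15, -0.066 and -0.27 within batches 1, 2 and 3, and -0.053 under total counts. By type it was -0.28 for H2A, -0.079 for H2B, -0.19 for H3 and -0.13 for H4, and the H2B value turned to 0.020 under total counts.

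The lowest p in small RNA was that of the H4 gene his-64, with 41.5, 40.3 and 41.3 CPM in cup-4 replicates 1, 2 and 3, against 49.8, 47.2 and 51.2 CPM in wild-type replicates 1, 2 and 3. Its libraries were tight within each genotype and did not overlap, with a log2 fold change of -0.27 ± 0.074 (SE; edgeR quasi-likelihood test, adjusted p = 0.117). The H4 copies his-10 and his-26 had log2 fold changes of -0.75 ± 0.24 and -0.66 ± 0.21, each with adjusted p = 0.138 by edgeR, and the third copy, his-14, had -0.43 ± 0.23 (adjusted p = 0.3). Summed over the 3 copies, small RNA was 16.3 ± 1.67 CPM in cup-4 gonads (SD, n = 3) and 24.8 ± 5.53 CPM in wild-type gonads (SD, n = 3). How shared reads were counted is not known, so a sum need not remove that uncertainty. The sums were 18.19, 15.21 and 15.37 CPM in cup-4 replicates 1, 2 and 3, against 18.64, 26.37 and 29.35 CPM in wild-type replicates 1, 2 and 3. The genotypes were thus close in batch 1. The highest small RNA level per kilobase among H4 genes was that of his-60, with 52.9, 61.9 and 56.9 CPM in cup-4 replicates 1, 2 and 3, against 65.2, 65.4 and 84.1 CPM in wild-type replicates 1, 2 and 3. These do not overlap (log2 fold change -0.32 ± 0.12, adjusted p = 0.18 by edgeR).

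Among H2A genes his-35 had the most small RNA per kilobase, and its level was 107 ± 13.1 CPM in cup-4 gonads (SD, n = 3) and 128 ± 22 CPM in wild-type gonads (SD, n = 3), which overlap (log2 fold change -0.26 ± 0.14, adjusted p = 0.319 by edgeR). The H2A gene his-61 was lower in every cup-4 library, with a log2 fold change of -0.50 ± 0.17 (adjusted p = 0.152 by edgeR). Among H2B genes his-62 and his-4 had the most small RNA per kilobase. The gene his-62 had 43.2, 33.2 and 34.8 CPM in cup-4 replicates 1, 2 and 3, against 64.8, 40.0 and 26.7 CPM in wild-type replicates 1, 2 and 3. The genotypes overlapped, with wild-type replicate 1 highest and wild-type replicate 3 lowest of all. The gene his-4 had a log2 fold change of 0.20 ± 0.12 (adjusted p = 0.357 by edgeR) in small RNA, beside -1.45 in mRNA.

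Among the H3 variants his-72 had 57.3, 45.0 and 48.3 CPM of small RNA in cup-4 replicates 1, 2 and 3, against 60.5, 62.5 and 57.3 CPM in wild-type replicates 1, 2 and 3. The highest cup-4 library lay just below the lowest wild-type library, and the log2 fold change was -0.26 ± 0.10 (SE; edgeR quasi-likelihood test, adjusted p = 0.198). The gene his-71 had 65, 36 and 72 counts in cup-4 replicates 1, 2 and 3, against 13, 82 and 52 counts in wild-type replicates 1, 2 and 3. Scaled to CPM, its values were 3.79, 2.34 and 3.03 in cup-4 replicates 1, 2 and 3, against 0.707, 2.05 and 2.31 in wild-type replicates 1, 2 and 3. The cup-4 libraries lay above the wild-type libraries, narrowly so apart from wild-type replicate 1 (log2 fold change 0.84 ± 0.44, adjusted p = 0.293 by edgeR). The gene his-70 overlapped between genotypes at 0.58 ± 0.46.

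Across assays, 38 genes were tested in both. Of these 21 had a fold change below 0 in both, 10 were below 0 in mRNA alone, 3 in small RNA alone and 4 in neither. The 4 genes his-60, his-63, his-64 and his-72 (10.5%) had no overlap with cup-4 lower in both, against 4.53% of the 10163 genes tested in both. The gap was narrow for his-60 in mRNA, with 55.93 CPM in cup-4 replicate 2 and 56.12 CPM in wild-type replicate 3, and for his-72 in small RNA, with 57.25 CPM in cup-4 replicate 1 and 57.27 CPM in wild-type replicate 3. Under total counts his-60 overlapped in mRNA, and his-63 and his-72 overlapped in small RNA, which leaves his-64. Across the 38 genes the fold changes of the assays had a Spearman rho of 0.25, as a description: genes are not independent replicates, and copies share reads. For levels, 33 replication-type genes tested in both assays had a Spearman rho of 0.55 between small RNA and mRNA per kilobase in wild-type gonads, where both levels share the annotated span.

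Other genes of the pathway were taken from lists. Of 12 tested genes among the other histone genes, 4 had an mRNA fold change below 0 at an unadjusted p under 0.05 and 0 were higher, against 6.35% lower and 10.8% higher of all genes tested, and none passed adjustment in edgeR. The H3.3 gene his-74 had 52.7, 57 and 61.8 CPM of mRNA in cup-4 replicates 1, 2 and 3, against 142.1 and 108.1 CPM in wild-type replicates 2 and 3 (log2 fold change -1.13 ± 0.20, adjusted p = 0.122). The linker histone genes hil-2 and hil-5 had -0.58 and -0.78, and htz-1, which encodes the variant H2A.Z, had -0.58. The median of the list was -0.43, and 4 of the 12 had a log2 fold change above 0. The 16 S phase genes, such as the replicative helicase subunits and the clamp gene pcn-1, had a median of 0.098 in mRNA, with 1 lower and 0 higher at an unadjusted p under 0.05. The 12 genes of histone mRNA processing and histone chaperones had a median of 0.0097 in mRNA, with 0 past that p, and the 6 small RNA genes, among them csr-1 and ego-1, a median of 0.0051, also with 0. For comparison the median of all genes tested in mRNA was 0.16.

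In small RNA the last 3 of these lists had medians below 0. The median log2 fold change was -0.19 for the S phase genes (6 of 16 lower at an unadjusted p under 0.05), -0.18 for the processing and chaperone genes (6 of 12 lower) and -0.22 for the small RNA genes (3 of 6 lower), with 0 higher and none past adjustment by edgeR. Of all genes tested in small RNA, 11.1% were lower and 11.7% higher at that p, with a median of 0.0065. Among them, ego-1, which makes antisense small RNAs, had 294, 303 and 322 CPM in cup-4 replicates 1, 2 and 3, against 368.8, 423.2 and 395.5 CPM in wild-type replicates 1, 2 and 3 (log2 fold change -0.37 ± 0.083, adjusted p = 0.0824). The other histone genes had a median of 0.037 in small RNA, above their median in mRNA. The 8 germline markers also had a small RNA median below 0, at -0.11, with 2 lower at that p and 1 lower past adjustment by edgeR. Values of all lists come from the main fit alone and were not computed under total counts.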

How the data were processed

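The values deposited by the authors are raw read counts for each gene, 1 table per assay. Per the labels, small RNA counts are in antisense orientation, and the mRNA molecule is poly(A) RNA, whereas the design text calls it total RNA. The submitters' processing notes name FastQC, cutadapt, HISAT2, HTSeq and DESeq2, with the build ce11, and give no roles or settings, so strand use in mRNA and the handling of shared reads are not given in the sources used here. The 5 summary rows per table, 13.4% to 49.1% of reads, were left out.

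Each assay was fitted on all genes in R 4.3.3 with edgeR 4.0.16 (quasi-likelihood, robust, TMM scaling, filterByExpr, genotype alone, Benjamini-Hochberg, threshold 0.05). CPM use TMM-scaled library sizes. SE is the absolute log2 fold change over the square root of F. Alternatives were the batch as replicate block, RLE size factors, total counts, DESeq2 1.42.0, no filter, batches 2 and 3, and each library left out. Within-batch ratios of genes use a pseudocount of 0.1 CPM. The test was tried on simulated data. The replicate number equals the batch in the labels, so numbers pair samples. Deviations from genotype means correlated at 0.124, 0.101 and 0.172 in small RNA batches 1, 2 and 3, and at -0.12 and 0.54 in mRNA batches 2 and 3. Libraries of a genotype differed by more than sampling noise, with a smallest chi-square of 17.8 for each degree of freedom. Depth limits low genes: 1 count is 0.025 to 0.065 CPM in small RNA.

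Genes were named in identifier order. Spans and coordinates are RefSeq's for WBcel235, the assembly of ce11. Histone types follow gene length and textbook knowledge, since no protein table was used. No sequences are shown. Members and lists were chosen with earlier results of these data known. Named genes are the variants, the 2 highest of each type per assay, and the 3 of lowest p per assay.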

Additional observations from a re-analysis of the deposited data

How the results depend on the processing

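Counts of histone genes past the threshold moved from 0 to 1 in small RNA with DESeq2 and to 3 without the filter on low counts, and from 0 to 1 in mRNA with the replicate block (his-24) and to 3 with DESeq2. Pairing by batch with the replicate block changed no other call. In mRNA the block fit takes its genotype difference from batches 2 and 3, since batch 1 has a cup-4 library alone. The small RNA median of -0.084 was 0.0197 under total counts. This scaling moved the median of all genes to 0.12, and relative to all genes the histone median was -0.091 under TMM and -0.095 under total counts. It ranged from -0.17 to -0.0415 with libraries left out. The small RNA sum of replication-type genes, -0.16 on the log2 scale, was -0.053 under total counts and -0.03 with all histone genes summed, where his-24 dominates, and ranged from -0.20 to -0.11 with libraries left out. In mRNA the median of -0.60 ranged from -0.89 to -0.20 and the sum from -0.90 to -0.41, the lower ends leaving out wild-type replicate 3 and the upper ends wild-type replicate 2. Of single genes in small RNA, his-24 turned to -0.0026 without the filter and his-37 to 0.016 under total counts. With libraries left out, his-24 ranged from -0.065 to 0.11, his-41 from -0.39 to 0.26, his-62 from -0.50 to 0.14 and his-67 from -0.0445 to 0.16. In mRNA his-70 turned to -0.19 with the replicate block and ranged from -0.61 to 4.27 with libraries left out, and his-71 ranged from -0.75 to 0.13. The cause was not tested. Over the named genes, 185 of 198 small RNA values and 167 of 174 mRNA values kept direction and side of the threshold. None of these genes passed in the main fit, so keeping that side shows no stability of a call. Direction reversed in 9 small RNA values and 3 mRNA values. In mRNA, batches 2 and 3 alone are the same fit as leaving out cup-4 replicate 1, so that fit is counted under both names. Without wild-type mRNA of batch 1, 2 libraries set the wild-type mRNA level, and counting limits genes with few reads.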
